A study of Drosophila melanogaster with 2 samples.

Results

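Distal summits outside protein-coding genes are the binding peaks of an lmd-eGFP experiment whose highest point lies in no protein-coding gene body and over 500 bp from every start of protein-coding transcription (TSS, transcription start site). Applied to the conservative peak set of both replicates on the 6 large sequences of the genome, namely X, 4 and the arms 2L, 2R, 3L and 3R (main arms below), this rule took 904 of 4998 summits, or 18.1% (Wilson 95% interval 17.04 to 19.2). The space that meets the same rule makes up 29.99% of these arms, or 40.1 Mb. The other summits served for comparison: 1910 promoter summits, within 500 bp of a TSS, and 2184 summits inside protein-coding genes and farther from a start. The rule used position only, so the signal, the overlap with each replicate and the sequence of the members were free to vary.

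Chromatin immunoprecipitation and sequencing was done on whole Drosophila melanogaster embryos, aged 0 to 18 hours, of the strain lmd-GFP, which carries an insertion for a fusion of lame duck (lmd) to eGFP, the green fluorescent protein, and the fusion was pulled down with anti-GFP. There was 1 group of 2 biological replicates, both with the same transgene, and no embryos without it were analysed here, so no difference between conditions and no test over samples was possible. The spread between replicates is shown by applying the rule to the peak set of each replicate alone, and intervals over summits cover counting error only, since summits are not replicates. The chromatin came from whole embryos over a wide range of ages, so the tissue in which a site was bound cannot be told, and a site bound in fewer cells cannot be told apart from one bound less in each cell. The signal of a peak is the authors' value, with no stated normalization, and it is compared within 1 list only.

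The protein made from lmd belongs to the Gli superfamily of zinc finger factors. Fusion-competent myoblasts of the embryonic mesoderm, which join founder cells to build the larval muscles, need it to differentiate, and it acts there upstream of Mef2, a gene of muscle differentiation. In flies, as in other animals, stretches between genes can hold enhancers, which act on promoters at a distance, as well as silencers, insulators and genes for noncoding RNA. A summit away from genes can therefore not be given to a target by position alone, and the genes named here are those that border the gap, the stretch between the nearest protein-coding gene bodies on each side.

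The 5 windows of the reference below are shown because they are 4 of the 6 strongest members and the member nearest to the gene of the factor itself. Each is the plus strand of the RefSeq Release 6 genome (dm6) from 100 bp before to 100 bp after the summit, and capitals mark each copy of CAGTGCA or its reverse complement TGCACTG, the word of 7 bases with the largest excess at the members. They lie at chrX:12751304-12751504 and chrX:12752268-12752468 between CG4004 and Paics, at chr3R:16222384-16222584 between mtSSB and tara, at chr2L:1638704-1638904 between RFeSP and chinmo, and at chr3R:23028624-23028824 between lmd and CG13833.
CG4004–Paics, chrX:12751304-12751504: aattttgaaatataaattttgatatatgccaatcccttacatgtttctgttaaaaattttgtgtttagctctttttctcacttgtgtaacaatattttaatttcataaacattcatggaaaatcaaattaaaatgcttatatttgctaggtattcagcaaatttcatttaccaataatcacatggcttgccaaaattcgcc
mtSSB–tara, chr3R:16222384-16222584: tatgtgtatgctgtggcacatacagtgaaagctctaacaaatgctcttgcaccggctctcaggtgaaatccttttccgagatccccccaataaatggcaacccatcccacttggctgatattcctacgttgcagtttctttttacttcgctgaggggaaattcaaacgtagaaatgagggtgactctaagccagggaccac
RFeSP–chinmo, chr2L:1638704-1638904: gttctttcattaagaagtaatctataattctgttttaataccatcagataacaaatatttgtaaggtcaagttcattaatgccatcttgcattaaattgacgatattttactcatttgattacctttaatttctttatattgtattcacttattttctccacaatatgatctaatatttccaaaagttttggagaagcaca
CG4004–Paics, chrX:12752268-12752468: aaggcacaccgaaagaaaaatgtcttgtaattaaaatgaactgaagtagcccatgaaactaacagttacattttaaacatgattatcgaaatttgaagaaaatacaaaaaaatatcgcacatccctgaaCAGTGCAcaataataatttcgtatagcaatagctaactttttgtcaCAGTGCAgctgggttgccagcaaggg
lmd–CG13833, chr3R:23028624-23028824: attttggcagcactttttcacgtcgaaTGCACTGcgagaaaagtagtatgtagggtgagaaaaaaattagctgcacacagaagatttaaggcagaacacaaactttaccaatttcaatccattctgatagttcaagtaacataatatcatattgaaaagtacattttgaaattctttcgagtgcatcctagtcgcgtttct
GC content was 26.4% in the window of the strongest member and 25.9% in that upstream of chinmo, against 46.8% in that upstream of tara. The word is on the plus strand in the second X window, as 2 copies, and on the minus strand beside lmd, and the other 3 windows lack it.

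The member beside lmd (chr3R:23028616-23028836) had its summit 2011 bp upstream of the start of the gene, which lies on the minus strand at chr3R:23021222-23026713. Its signal in the joint set was 547.5, rank 409 of all 4998 peaks. In the ranked lists of the single replicates the same site had 127.6 in replicate 1 and 417.7 in replicate 2, and it was in the thresholded set of each. A second member bordered the gene on its other side, at chr3R:23018584-23018947, 2456 bp from the end of the gene. It was weaker, at 76.4, with 42.4 in the ranked list of replicate 1 and 37.1 in that of replicate 2, and it was in the thresholded set of replicate 1 only.

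The 10 strongest members had signals from 1214 to 2404 and bordered genes of varied function. The strongest (chrX:12750856-12751611) lay between CG4004 and Paics, a gene of purine synthesis, with a joint signal of 2404, with 866 in the replicate 1 list and 1560 in the replicate 2 list. Its summit lay inside the long noncoding RNA gene lncRNA:Vinr. The sixth, in the same gap, at 1520, lay within 200 bp of lncRNA:Vinr and inside lncRNA:CR44619. The second (chr3R:16222311-16222672) was 3167 bp upstream of tara, which encodes a coregulator of transcription linked to Trithorax-group genes, with 2240 in the joint list, 927 in replicate 1 and 1306 in replicate 2. The next pair in rank lay beside neighbouring Polycomb-group genes. One was at chr2R:13035170-13035500 between Su(z)2 and CG13323, with 2137, and the other at chr2R:12985032-12985378, 4223 bp upstream of Psc, with 1666. The member upstream of Psc lay inside lncRNA:CR44339 or within 200 bp of it. The fifth (chr2L:1638587-1638998) was 12454 bp upstream of chinmo, a BTB zinc finger gene known for the temporal identity of neurons, with 1547. The seventh, at 1393, lay between blw, the gene of an ATP synthase subunit, and CycB, the cyclin B gene. The eighth lay 502 bp from the TSS of CG17896, at 1324, just past the distance limit. The ninth, at 1214.97, was upstream of the translation elongation gene eEF1gamma, and inside lncRNA:CR31044 or within 200 bp of it. The tenth, at 1214, lay 3344 bp upstream of foxo, the forkhead factor gene of insulin signalling. All of these 10 were in the thresholded sets of both replicates, and apart from the eighth none lay nearer than 3167 bp to a protein-coding start.

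Ranks 11 to 20 among the members ran from 740 to 1017. They held 2 further sites in the chinmo gap, at 1017 and 951, 2 between NijA and CG43245, at 975 and 813, and another between CG4004 and Paics, at 778. The rest lay beside COX7AL2 and CG31668 at 909, between C15, a homeobox gene, and sp3 at 898, beside RasGAP1, a gene for a Ras GTPase activator, at 858, between the tubulin gene betaTub60D and slbo, the C/EBP gene of border cells, at 799, and between CG44362 and CG7560 at 740. Of these 20 members none bordered a gene of the lists for mesoderm and muscle factors, myoblast fusion or the sarcomere. Of all 904 members only 21, 1 and 5 lay in gaps bordering these lists. Few would thus be seen among 20 at that share. All 20 were in both replicate sets.

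Over all members the signal had a median of 138, with quartiles of 96.1 and 227 and a range of 2.03 to 2404. Promoter summits had a median of 196.8 and summits inside genes 143, so the members were near the second and below the first. The ratio of the distal to the promoter median was 0.701 in the joint set, 0.770 in replicate 1 alone and 0.775 in replicate 2 alone. Among the 100 strongest peaks 10 were members, 68 were promoter summits and 22 lay inside genes. When all main-arm peaks were divided by signal into 4 groups of equal size, the strongest group held 18.5% of the members, and its difference from the share of promoter summits was -15.9 points (Newcombe 95% interval -19.1 to -12.5), and from that of summits inside genes -0.986 points (-3.93 to 2.12). A width of 364 bp was shared by 616 members (68.1%), which had a median signal of 111, against 302 for the 288 of other widths, which ran from 91 to 756 bp. Only 35 members had a signal under 50, and 31 of these lay within 500 bp of a stronger peak.

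Over all signal levels, a lower share of members than of promoter summits was in the replicate 2 set, while the shares in the replicate 1 set did not differ beyond their interval. Of the 904 members 640 overlapped the replicate 1 set by at least 1 bp, or 70.8% (67.7 to 73.7), against 71.4% of all main-arm summits. In the replicate 2 set 671 were overlapped, or 74.2% (71.3 to 77.0), against 83% of all. Both sets overlapped 516 members, or 57.1% (53.8 to 60.3), against 63.7% of all, and 109 members (12.1%) were in neither. Promoter summits were in the replicate 1 set at 73.4% and in the replicate 2 set at 92.0%, so the difference of the members from them was -2.61 points in the first (-6.22 to 0.908) and -17.8 points in the second (-21.0 to -14.8). Summits inside genes had 69.9% and 78.8%, and the difference of the members from these was 0.879 points in replicate 1 (-2.71 to 4.35) and -4.57 points in replicate 2 (-7.96 to -1.31). The joint set was itself made from both replicates, so none of these shares is a measure of error free of that choice.

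**Figure D1:**
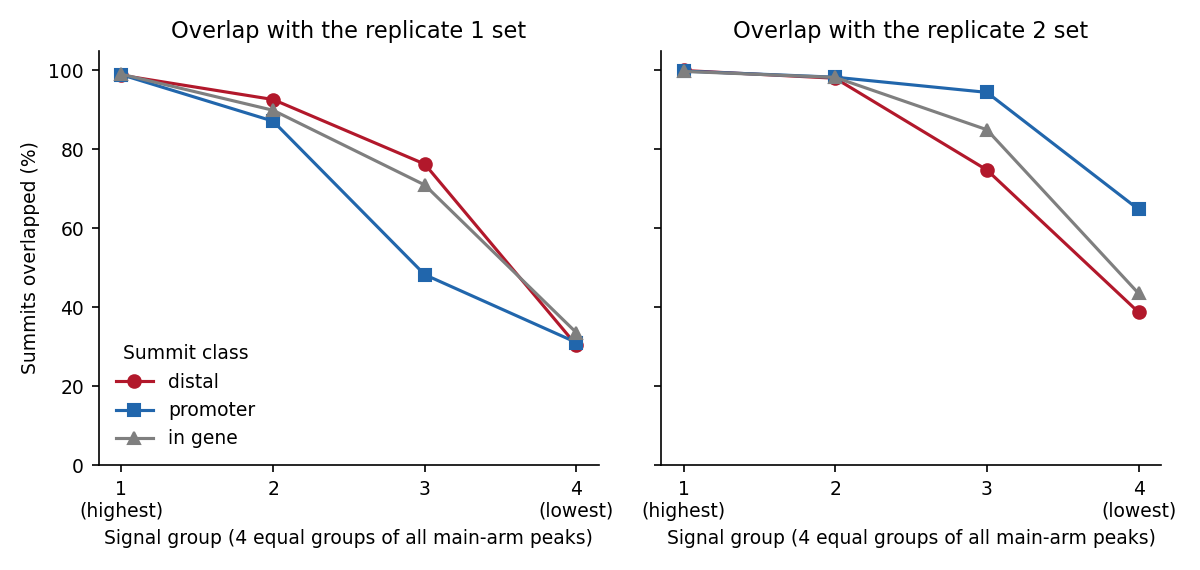
Share of summits (%, vertical axis) that overlap the thresholded set of replicate 1 (left) or replicate 2 (right), by signal group, 4 equal groups of all main-arm peaks from the strongest to the weakest (horizontal axis), for distal, promoter and in-gene summits. In the third group the members stand at 76.3% and 74.8%, promoter summits at 48.3% and 94.5%, and in-gene summits at 71% and 85%.

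The plot of overlap by signal group shows where the classes parted. In the strongest group 98.8% of the members were in the replicate 1 set and 100% in the replicate 2 set. In the second group these shares were 92.6% and 98.04%. In the third they were 76.3% and 74.8%, about even between replicates, whereas promoter summits of the same group had 48.3% and 94.5%. Summits inside genes lay between these classes there, at 71% and 85%. In the weakest group 30.4% and 38.8% of the members were called, against 33.6% and 43.5% of summits inside genes and 31.1% and 64.8% of promoter summits. Both sets held 90.7% of the members and 85.7% of promoter summits in the second group. In the third they held 52.6% and 43.5%, and in the weakest 9.13% and 21.8%, so the order of these classes turned with signal. Of summits inside genes both sets held 88.2%, 57.2% and 16.5% in the same groups. The ranked lists, which go below the threshold, held a peak at 899 members in replicate 1 and at 901 in replicate 2. The median log2 ratio of replicate 2 to replicate 1 signal in those lists was 0.07 at the members, 0.62 at promoter summits and 0.18 at summits inside genes. The 2 lists are on scales of their own, so only the gap between the classes can be read, not the level. Over 896 members found in both ranked lists the signals had a Spearman rho of 0.573, and over 4955 main-arm peaks 0.677, across sites of the same 2 libraries. Each site took the highest signal of any overlapping peak, so neighbouring sites can share the same values. The rule applied to each replicate alone took 804 of 3929 summits in replicate 1 (20.5%) and 899 of 5544 in replicate 2 (16.2%). Of the first, 64.2% overlapped the replicate 2 set, against 80.5% of all replicate 1 peaks, and of the second 59.3% overlapped the replicate 1 set, against 57.4% of all replicate 2 peaks.

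The members became rarer with distance from promoters. Their median distance to a protein-coding TSS was 4416 bp, with quartiles of 1768 and 10136 bp. Between 500 and 1000 bp there were 104 members, or 45.8 per Mb of distal space (exact Poisson 95% interval 37.4 to 55.5). From 1000 to 2000 bp the density was 39.6 per Mb, from 2000 to 5000 bp 29.1, from 5000 to 10000 bp 24.1 and from 10000 to 20000 bp 22.1. It was 11.3 from 20000 to 50000 bp (8.67 to 14.6) and 1.41 beyond (0.610 to 2.78). Up to 20000 bp the intervals of neighbouring bands overlapped, except those of the second and the third, and the 2 farthest bands lay below all the others. The median signal changed little across the first 5 bands, from 132 to 151, and was 122 and 118 in the last 2. How far repeats limit the placing of reads at each distance was not tested, so a lower density need not mean less binding.

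**Figure D2:**
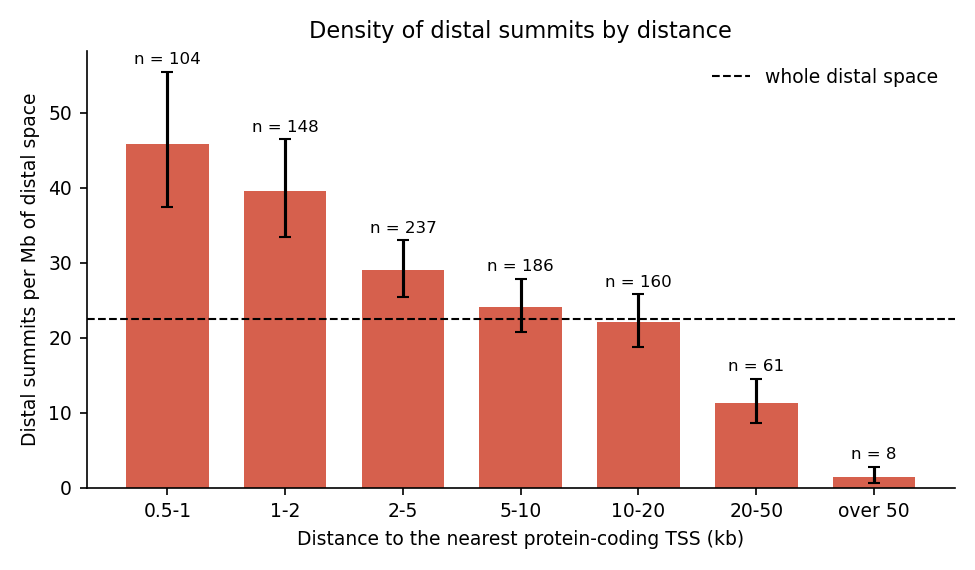
Distal summits per Mb of distal space (vertical axis) by distance to the nearest protein-coding TSS in kb (horizontal axis). Bars are the density, error bars exact Poisson 95% intervals, n the number of members, and the dashed line the mean of 22.5 per Mb; the density falls from 45.8 per Mb at 0.5 to 1 kb to 1.41 beyond 50 kb.

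At the limit of the rule itself the nearest members were at Sqor (501 bp, signal 243), CG17896 (502 bp, 1324), CG42808 (507 bp, 138), for (510 bp, 142) and Boot (511 bp, 384). The nearest summits outside genes that the rule left out were at CG43901 (499 bp, 191), CrebA (499 bp, 153), CG10479 (496 bp, 896), prtp (492 bp, 451) and by (487 bp, 86.6). The signals of these members and of these left-out summits overlapped.

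The farthest member lay 68560 bp from any protein-coding start, between Or67d, an odorant receptor gene, and CG12362 (chr3L:10344076-10344439, signal 173), and both replicates called it. Of the 8 members beyond 50000 bp, 5 lay in this gap of 138193 bp, with signals from 80.1 to 275. All 5 lay inside the long noncoding RNA gene lncRNA:CR46006. Between vvl, a POU homeodomain gene, and Prat2 lay 2 more, at 168 and 96.1. The other bordered hth, the gene of a homeodomain cofactor of Hox proteins, at 119. The next farthest were at ATbp on X (46191 bp, 106) and at CG6414 (45828 bp, 70.1). The highest signal among the 10 farthest members was 275, just above 274.86, the lowest signal of a member in the strongest group of peaks.

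The orientation of the bordering genes went with density. Gaps between divergent genes, which are transcribed away from each other, held 290 members, or 30.5 per Mb of distal space (27.1 to 34.3). Gaps between tandem genes held 437, or 21.8 per Mb (19.8 to 24.0), and gaps between convergent genes 176, or 20.1 per Mb (17.3 to 23.3). The stretches from the last gene to an arm end held 1 member, or 0.527 per Mb (0.0133 to 2.94). Divergent gaps thus exceeded both other kinds beyond their intervals, and tandem and convergent gaps did not differ beyond theirs. Neither the distance to a TSS nor the content of repeats was held equal between the kinds of gap. Upstream of the nearest TSS lay 64.9% of the members (61.8 to 68.0), against 59.1% of the distal space.

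By arm, the density was 27.2 per Mb of distal space on 2L (203 members, 23.6 to 31.2), 23.6 on 3L (230), 23.1 on 3R (194), 21.7 on X (137) and 17.7 on 2R (140, 14.9 to 20.8). The intervals of 2L and 2R did not overlap, and those of the other 3 large arms overlapped both. The small chromosome 4 held only 2 peaks of any class and 0 members, which allows up to 12.4 per Mb. The density on X was 0.9504 times that on the autosomal arms (95% interval 0.787 to 1.14). It was 0.757 times in replicate 1 alone and 1.08 times in replicate 2 alone, so the replicates fell on opposite sides of an even density.

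Of 5757 gaps that contain distal space 544 held a member (9.45%). A single member stood in 372 gaps, while 77 gaps with 3 or more held 342 members, or 37.8% of all. Gaps with a member had a median length of 11330 bp, against 1596 bp over all gaps. Density was highest in gaps of 2 to 5 kb, at 50.1 per Mb (41.8 to 59.5), and lowest in the 37 gaps over 100 kb, at 2.25 per Mb (1.33 to 3.55). Only 75 members had a peak that overlapped another, and keeping 1 summit per 1000 bp left 817.

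The gap between RFeSP, a gene of the mitochondrial respiratory chain, and chinmo was among those with many members and held 11. From the RFeSP side their signals were 222.5, 84.1, 215, 393, 177, 1017, 338, 1547, 951, 73.7 and 488, so 3 high sites stood among lower ones. The gap from hng3 to CG13898 held 11 as well, with signals from 67.7 to 632, and its neighbour from CG13898 to Sf3b3 held 7 more.

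**Figure D3:**
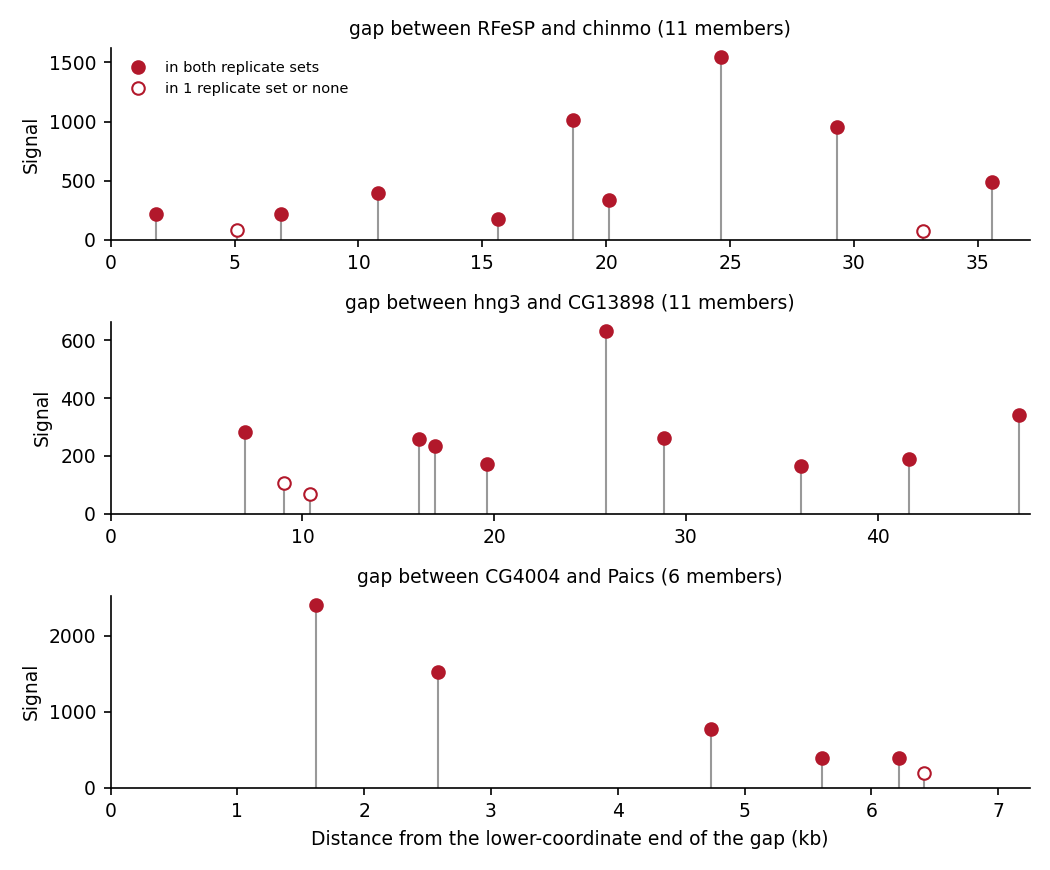
Signal of each member (vertical axis, the authors' value in the joint list) by its distance in kb from the lower-coordinate end of the gap (horizontal axis), for 2 gaps with 11 members each and the gap between CG4004 and Paics, with 6. Filled points were in both replicate sets and open points in 1 or none; the highest point, at 2404, is in the shortest of these gaps, and the members of the gap between hng3 and CG13898 stay between 67.7 and 632.

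Gaps with 7 members or more numbered 11 and held 97 members together. Of these gaps 9 were on 3L and 2 on 2L. They included those between CG44362 and CG7560 and between CG6168 and CG6163, with 10 members each, and with 7 each those between NijA and CG43245, between CG43245 and CG12523, between CG7320 and CheA75a, between noc, a zinc finger gene, and CG33648, and between Ids and sty, which encodes the receptor tyrosine kinase antagonist Sprouty. Outside these gaps 3L had 151 members, or 16.1 per Mb of distal space. The gaps were picked for their many members, so a lower density outside them follows from that choice. It cannot be set against the densities of whole arms. The gap between CG4004 and Paics, which holds the strongest member, had 6 members in 7250 bp. Their signals in order along X were 2404, 1520, 778, 391, 388 and 189, falling from one end of the gap to the other, and 5 of the 6 were in both replicate sets.

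Most members at noncoding genes were at genes for long or other noncoding RNA. Within 200 bp of a noncoding gene lay 156 members, or 17.3% (14.9 to 19.9), against 8.69% of the distal space. Of these, 153 were at genes for long or other noncoding RNA (16.9%, against 7.65% of the space), 1 at a gene for a small nuclear RNA and 2 at pseudogenes. At genes for transfer RNA, small nucleolar RNA, microRNA and ribosomal RNA there were 0 members, and each of these classes covers between 0.0412% and 0.141% of the space, so few would be seen by position alone. Starts of long or other noncoding RNA genes had a member within 500 bp at 79 members, 8.74% against 3.16% of the space. Among the noncoding genes with several members were lncRNA:CR32773 and lncRNA:CR46006, with 5 each. Members at noncoding genes had a median signal of 134, close to the 138 of all members. Annotated transposable elements held 5 members, 0.553% (0.236 to 1.29) against 10.5% of the space. Windows that are over 50% soft-masked, the mark of repeats in the reference, made up 4.54% of the members and 15.4% of the windows tiling the distal space. How far repeats limit the placing of reads in these files was not tested.

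The members had a narrow dip of GC content with raised sides. In the window of 100 bp on each side the mean was 35.6% (SD 6.82 over 904 members), and in windows 1000 bp to the lower-coordinate side it was 41.2% (SD 8.53). The difference of summit from flank was -5.57 points in the joint set, -6.03 in replicate 1 alone and -5.18 in replicate 2 alone. It was lower in 630 members, or 69.7%. At the 50 bp on each side of the summit the mean was 33.0% and 33.4%, it rose to 45.3% at 150 to 249 bp, and from 550 bp outward it lay between 40.1% and 41.1% on that side. The mean of all windows tiling the distal space was 40.9%, so the sides were above and the centre below it. The same difference was -9.44 points at promoter summits and -5.01 points at summits inside genes.

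**Figure D4:**
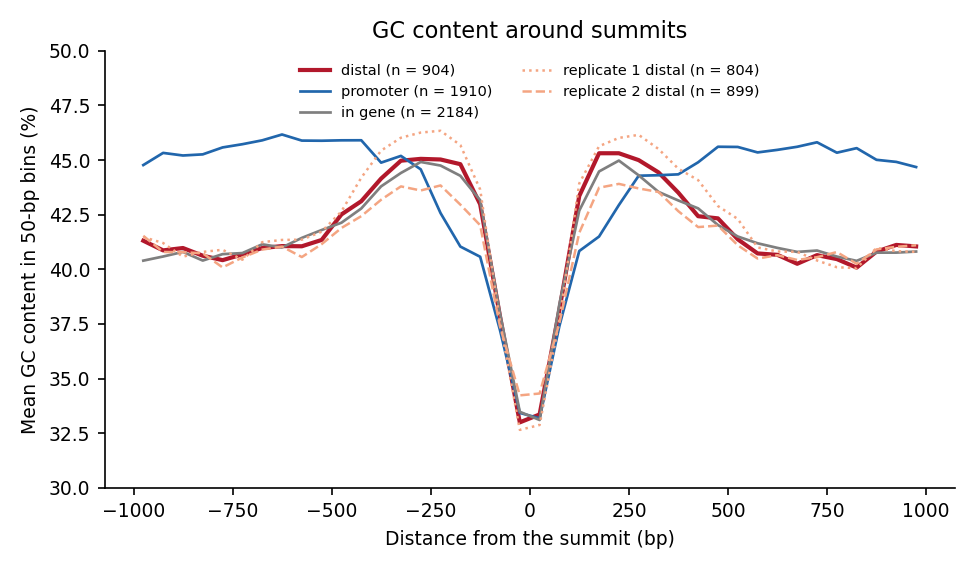
Mean GC content (%, vertical axis, which starts at 30) in 50-bp bins by distance from the summit in bp (horizontal axis) for the 3 classes and for the distal summits of each replicate alone. The distal line of the joint set falls to about 33% at the centre and rises to 45.3% between 150 and 249 bp. In those 2 bins replicate 1 stands at 45.6% and 46.0% and replicate 2 at 43.7% and 43.9%. Promoter summits do not rise above their surroundings.

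The motif of the factor's own family was not more frequent at the members. The Gli-type core CCACCCA, searched on both strands as were all motifs, was within 100 bp of 2.10% of the members against 4.42% of their flanks, a difference of -2.32 points (Newcombe 95% interval -4.04 to -0.685). In windows of the distal space with the same GC content the share was 2.11%. The Zic-type core CCCGCTG had 0.774% against 2.10% of flanks and 0.891% of windows of equal GC content, and the run CCCCCC had 3.21%, 7.63% and 2.43%. The lower shares at summits thus went with the lower GC content there.

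Several motifs rich in A and T were more frequent at the members than at their flanks. The Mef2 motif, which is bound by the MADS-box protein of muscle differentiation, was at 12.3% of the members against 7.41% of flanks, 4.87 points more (2.13 to 7.63), with 11.8% in replicate 1 alone and 11.8% in replicate 2 alone. In windows of the distal space it was at 7.03%, and at 10.5% after weighting to the GC content of the members. The repeat TATATA was at 21.3% of members, 12.8% of flanks and 16.3% of windows of equal GC content. The run AAAAAAA was at 24.7%, 18.8% and 22.9%, and the TATA box TATAAAA at 16.04%, 10.8% and 15.1%. At promoter summits and at summits inside genes, in that order, the Mef2 motif was at 14.3% and 10.9% and TATATA at 21.7% and 18.3%. AAAAAAA was at 23.8% and 28.9% there, and TATAAAA at 19.4% and 16.1%. These motifs were thus not particular to the members. The FoxF word TAAACA, named for the forkhead factor of the visceral mesoderm, was at 21.7% against 17.04% of flanks but at 22.8% of windows of equal GC content, so its direction turned, as it did for 6 other motifs. Of the 25 motifs 9 differed between members and flanks beyond their interval, and the differences at equal GC content were smaller for these. The intervals do not use the pairing of summit and flank within a member. For the Mef2 motif 99 members had it at the summit only and 55 at the flank only.

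Promoter words were rarer at the members than at promoters. The DREF word TATCGATA, of a factor of housekeeping promoters, was at 7 members (0.774%), 0 of their flanks and 5.50% of promoter summits, and the word CGATA of the insulator protein BEAF-32 was at 18.7% and 34.7%. The M1BP word GGTCACAC was at 0.332% of members and flanks alike and at 2.62% of promoter summits. CGATA was as frequent at the flanks of the members, at 19.03%, as at their summits. Words of Tinman (TCAAGTG, 4.09% against 3.98% of flanks), the Twist-type E-boxes CATATG (7.74% against 7.52%) and CACATG (8.30% against 9.07%), Zelda (CAGGTAG, 0.885% against 0.442%) and GAGA factor (GAGAGAG, 2.54% against 3.10%) did not differ beyond their intervals, nor did those of GATA factors (GATAAG, 6.86% against 8.52%), homeodomains (TAATTA, 18.5% against 15.8%), CTCF (AGGNGGC, 5.42% against 7.30%) and Pho (GCCATNTT, 3.43% against 4.20%). The remaining words, those of Grainyhead (ACCGGTT, 0.332% against 1.11%), Ets factors (CCGGAAG, 0.664% against 0.553%), Suppressor of Hairless (GTGGGAA, 2.10% against 2.21%), AP-1 (TGACTCA, 1.44% against 1.88%) and the repeat CACACA (14.9% against 16.9%), also had intervals of the difference that contain 0. An absent word says only that those letters are not in the window.

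Among all words of 7 bases CAGTGCA had the largest excess at the members. It was within 100 bp of 156 members, or 17.3% (14.9 to 19.9), against 3.43% of their flanks (2.43 to 4.83) and 3.31% of the 196008 windows that tile the distal space. Windows of the distal space of the same GC content as the members held it at 2.89%. The share was 17.04% at the distal summits of replicate 1 alone, 14.5% at those of replicate 2 alone and 15.2% in the wider joint set. It was 15.6%, 16.2%, 19.6% and 16.7% from the strongest to the weakest signal group, without order. At promoter summits it was 5.92% (4.94 to 7.07) and at summits inside genes 11.9% (10.6 to 13.3). The word was picked for its excess at these same members, which favours their share. Their interval does not cover that choice, so it is no fair comparison of the classes. The replicate sets overlap many of the members and are not independent of the choice. The other 9 leading words, such as AAAAAAT (29.4% against 17.04% of flanks) and AAATATA (25% against 13.6%), were made of A and T but for 1 with a single G, and their share at summits was 1.49 to 1.99 times that at flanks, against 5.03 times for CAGTGCA. The sources used here name no factor for this word, and none is assigned.

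The examples below are shown for their place and their surroundings, which were examined after the share of the word was known. They are the copy nearest to the summit in each of the strongest members with the word on 2L, 3L, 3R and X, read 5′ to 3′ in the direction of CAGTGCA, with the word in capitals and 10 bases on each side.
CG4004–Paics, chrX:12752387-12752413, plus strand: catccctgaaCAGTGCAcaataataat
NijA–CG43245, chr3L:10740012-10740038, plus strand: cttataattgCAGTGCAtcgaatggct
CG9300–Shal, chr3L:19560897-19560923, plus strand: aaaaaattctCAGTGCAacggcaaccg
CG44362–CG7560, chr3L:11416903-11416929, minus strand: tagtttctccCAGTGCAcctgtgtgta
lmd–CG13833, chr3R:23028641-23028667, minus strand: acttttctcgCAGTGCAttcgacgtga
CG16721–Act5C, chrX:5900069-5900095, minus strand: tcgattttttCAGTGCAgtctatgcgt
CG43131–RabGGTa, chr3R:5113179-5113205, minus strand: tgattttttcCAGTGCAcagatgcgag
RFeSP–chinmo, chr2L:1649698-1649724, minus strand: acgaaaaatgCAGTGCAtttttcggtc
CG16721–Act5C, chrX:5896305-5896331, plus strand: ggtgtgagtgCAGTGCAgtgtgtctgt
aop–CG10874, chr2L:2180164-2180190, minus strand: gattttctttCAGTGCAtacccacgga
CG17121–p53, chr3R:23048746-23048772, minus strand: atatttttttCAGTGCActtttcccaa
CG9452–Cpr76Ba, chr3L:19516694-19516720, plus strand: cggatgtaagCAGTGCAacccgaagtt
Of these 12 copies 11 read away from the summit of their member.

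Copies of the word were most frequent to the sides of the summit. Within 150 bp of the members there were 242 copies, and 53 of them had their centre less than 50 bp from the summit, 124 between 50 and 99 bp and 65 between 100 and 150 bp. The median distance was 76.5 bp. The direction of the copies went with their side: 200 of 242, or 82.6% (77.4 to 86.9), read away from the summit. This share was 85.8% at the distal summits of replicate 1 alone and 82.9% at those of replicate 2 alone, 77.2% at summits inside genes (73.0 to 80.9) and 67.4% at promoter summits (60.2 to 73.9).

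**Figure D5:**
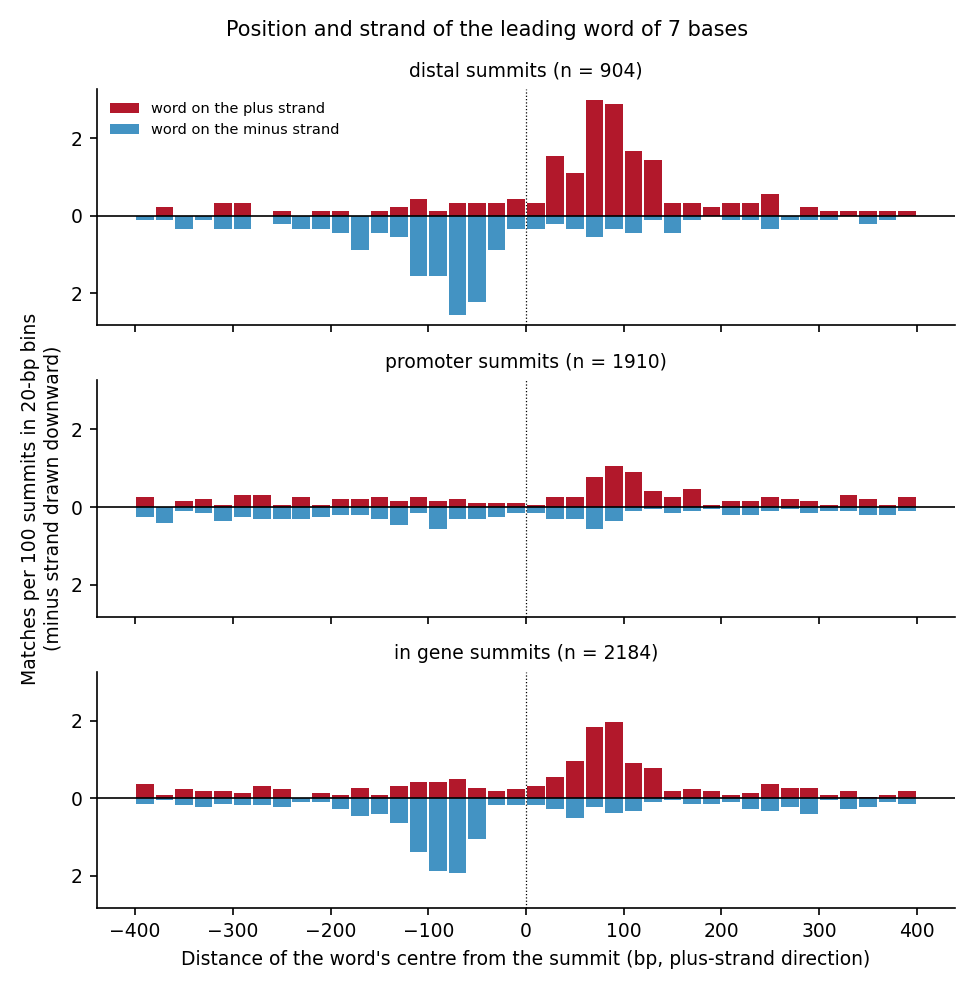
Copies of the leading word of 7 bases per 100 summits in 20-bp bins (vertical axis, plus strand upward, minus strand downward) by distance of the centre of the word from the summit in bp (horizontal axis), for distal, promoter and in-gene summits. At distal summits the highest bins of plus-strand copies lie from 60 to 99 bp above the summit, with 27 and 26 copies, and those of minus-strand copies from 41 to 80 bp below it, with 20 and 23.

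The bases before the word were mostly pyrimidines. In 239 copies with full surroundings T was at 77.4%, 81.6% and 76.6% of copies 7, 6 and 5 bases before the word, and T or C at between 65.7% and 87.4% at each of the 7 positions before it. All 7 bases were pyrimidines in 101 copies, or 42.3%, against 9.67% of 7054 copies in the distal space as a whole and 5 of 49 copies in the flanks. The run TTT at positions 7 to 5 before the word was at 66.5% of the copies, against 18.4% in the distal space. After the word the highest share of any base was 33.9% over the 10 positions looked at. Members can hold more than 1 copy, so the copies are not independent.

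The share of genes that border a member varied between the gene lists. Over all 13945 protein-coding genes 994, or 7.13%, bordered a gap with a member, and of the 8122 that border any distal space these were 12.2%. Of 34 transcription factor genes of mesoderm and muscle 9 did, or 27.3% of the 33 that border distal space (Wilson 95% interval 15.1 to 44.2). Genes that share a gap are not independent, which such intervals do not cover. The strongest such sites were those beside lmd (547.5) and beside bin, the FoxF gene of visceral mesoderm, whose member (chr3L:6989088-6989548) had a signal of 469, 1301 bp upstream of the start, with 229 in replicate 1 and 243 in replicate 2. The T-box genes Doc1 and Doc2 of the dorsal mesoderm share a gap with 3 members, the strongest at 391, with 207 in replicate 1 and 190 in replicate 2. These 3 sites were in both replicate sets. Per Mb of the distal space they border the list had 35.9 members (22.2 to 54.9), against 22.5 over all gaps. This interval contains the overall value.

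Of 19 myoblast fusion genes 1 bordered a member, or 8.33% of the 12 that border distal space (1.49 to 35.4), and their density was 21.2 per Mb (0.538 to 118), close to the 22.5 of all gaps. The gene was hbs, an immunoglobulin-type adhesion gene of fusion-competent myoblasts, with a signal of 221 and both replicates. Of 23 sarcomere genes 5 did, or 23.8% of the 21 that border distal space (10.6 to 45.1), an interval that contains the 12.2% of all such genes. They were led by the actin genes Act57B at 160, Act87E at 132, the troponin C gene TpnC47D at 124 and the Z-disc gene Zasp52 at 102, of which Act57B and Zasp52 were in the replicate 2 set only. The density at sarcomere genes was 30.8 per Mb (9.99 to 71.8), and this interval contains the overall value.

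Of 27 genes for signalling ligands and their antagonists 14 bordered a member, or 60.9% of the 23 that border distal space (40.8 to 77.8). They were led by the JAK/STAT ligand genes upd1 and upd3, which share 1 member of signal 351, vn, a ligand gene of the EGF receptor, at 246, and wg, a Wnt gene, at 217. Their density was 36.7 per Mb of bordering space (20.1 to 61.5). Of 29 segmentation and Hox genes 12 did, or 42.9% of 28 (26.5 to 60.9), led by slp1 and slp2, forkhead genes that share a member of signal 642, abd-A, a Hox gene, at 285, and odd, a pair-rule gene, at 229, and their density was 26.9 (16.2 to 42.0). Of 18 neural progenitor genes 5 did, or 41.7% of 12 (19.3 to 68.05), led by SoxN at 261, Dr at 172, insc at 106 and wor at 86.1. Their density, 17.8 per Mb (7.14 to 36.6), was on the other side of the overall value. For these 3 lists also the interval of the density contains 22.5. Their gaps held on average 11.6, 14.1 and 21.9 kb of distal space, against 6.97 kb over all gaps. Gaps of the sarcomere genes held 4.64 kb on average and those of the ribosomal protein genes 8.95 kb. Whether the length of gaps goes with the shares of the lists was not tested.

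The shares of neuronal, heat shock and ribosomal protein genes that border a member had intervals that contain the overall 12.2%. Of 22 neuronal genes 1 did, or 5.56% of the 18 that border distal space (0.988 to 25.8), the adhesion gene Fas3 at 135, in the replicate 1 set only. Of 14 heat shock genes 0 did, and 10 of them border distal space, with a density of at most 94.04 per Mb. Of 92 genes of the cytoplasmic ribosome 5 did, or 9.26% of 54 (4.02 to 19.9), RpLP0 at 175, RpL22-like at 173, RpS23 at 164 and RpL17 at 138 among them. The density at ribosomal protein genes was 9.72 per Mb (3.57 to 21.1) and at neuronal genes 4.32 (0.109 to 24.1), and the first of these intervals ends just below the overall 22.5. Genes of a list can share a gap, so counts of genes are higher than counts of sites.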

How the data were processed

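The 2 samples are peak lists from anti-GFP chromatin of whole embryos, sheared to 200 to 800 bp per the labels. In the sources used here the authors' aligner and peak caller are not given, and read depth is unknown, which limits what weak peaks could be called. The deposited lists, in dm6 coordinates per the labels, hold for each replicate alone a ranked list and 1 thresholded set, and for both together a conservative and a wider set. The signal of each peak is the deposited caller value, whose normalization no header or label states. The deposited −log10 of the global IDR, the irreproducible discovery rate, in the ranked list gave the stricter set, and the 16 per-sample columns of that list were not used.

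From these, summits on 6 arms were classed with Ensembl release 115 genes by distance to 13945 protein-coding genes, and sequence was read from the RefSeq Release 6 genome. Distal space is every base that meets the rule. Motifs (25, both strands) and words of 7 bases were sought within 100 bp of the summit, in a window 1000 bp to the lower-coordinate side, and in 201-bp windows tiling the distal space, reweighted to the members' GC content in bins of 5%. Intervals are Wilson, Newcombe, exact Poisson or exact binomial at 95%. The counting was tested on simulated peaks. Python 3.11.15, numpy 2.4.6 and scipy 1.17.1 were used. Replicates were not paired across groups, as there is 1 group. Members, lists, motifs and alternatives were chosen with earlier results of these data known. Named sites were the 20 strongest members, the gaps with the most members, those nearest lmd, the 10 farthest, those at the distance limit, up to 4 genes per list, all motifs and the 10 leading words; anything else named was chosen after its value was seen. One gap that the rule names is not reported here.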

Additional observations from a re-analysis of the deposited data

How the results depend on the processing

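No pairing of samples between groups was possible because the labels give 1 group. Summit and flank windows are pairs within a member, but the intervals of their differences treat the shares as independent. The share of distal summits among all summits was 16.2% to 20.5% with either replicate alone and 13.05% with a distance limit of 2000 bp. The share in the replicate 1 set was 59.8% in the wider joint set, 95.6% at a global IDR of at most 0.001, 59.96% with a reciprocal overlap of 50%, 99.4% against the unthresholded list and 59.3% at replicate 2's own distal summits. For the replicate 2 set these were 65.9%, 99.5%, 63.6%, 99.7% and, at replicate 1's own, 64.2%. The ratio of the distal to the promoter median signal was 0.714 in the wider set, 0.841 at the stricter IDR, 0.696 and 0.689 with limits of 1000 and 2000 bp, 0.714 with 1 summit per 1000 bp and 0.770 to 0.775 with single replicates. The GC difference was -4.74 points in the wider set, -6.28 at the stricter IDR, -8.07 with a window of 50 bp and -6.03 to -5.18 with single replicates. Motifs of higher share at summits numbered 11 of 25, 17 against windows of equal GC content and 10 to 12 with single replicates. Against those windows the difference turned for 7 motifs. It turned from beyond its interval for CCCCCC, to 0.774 points, and for TAAACA, to -1.14 points. From within its interval it turned for CACACA, from -1.99 to 2.04 points, AGGNGGC, from -1.88 to 1.43, GAGAGAG, from -0.553 to 0.965, CACATG, from -0.774 to 0.886, and TGACTCA, from -0.442 to 0.0139. The cause of these changes was not tested, apart from settings that narrow the set or the window by construction.

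The share at noncoding genes was 15.5% in the wider set, 16.6% at the stricter IDR, 18.5% and 18.9% with limits of 1000 and 2000 bp, 5.91% when noncoding gene bodies were left out too, 20.5% within 500 bp, and 15.9% to 16.8% with single replicates. The X to autosome ratio was 0.754 at the stricter IDR and 0.757 to 1.08 with single replicates. Gaps with 3 or more members numbered 119 in the wider set, 29 at the stricter IDR and 66 to 67 with single replicates. The share of list genes bordering a member, 18.7% over the 9 lists, was 21.2% in the wider set, 11.2% at the stricter IDR, 17.3% and 14.03% with limits of 1000 and 2000 bp, 17.6% without noncoding gene bodies and 16.9% to 17.6% with single replicates. Soft-masked bases, 21.8% of the members' windows, were 20.03% without masked windows and 21.3% to 22.4% with single replicates. No alternative reversed the direction of the GC difference or of the signal ratio below 1.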

Other observations

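List counts varied between replicates. Of the sarcomere genes 2 bordered a member with replicate 1 alone and 6 with replicate 2 alone, against 5 in the joint set. Of the signalling ligand genes 11 and 9 did, against 14 in the joint set, and of the mesoderm and muscle factor genes 12 and 11, against 9.

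The word CAGTGCA was at 18.2% of the members in both replicate sets (15.1 to 21.8), at 19.4% of those in the replicate 1 set only (13.4 to 27.2), at 12.3% of those in the replicate 2 set only (7.99 to 18.4) and at 17.4% of those in neither set (11.5 to 25.6), so these groups did not differ beyond their intervals. It was at 16.03% of the members near noncoding genes and at 17.5% of the others. By distance it was at 13.1% of the members up to 2000 bp from a start, 18.9% from 2000 to 10000 bp and 18.8% beyond. The words in excess at flanks were led by TGGCCAA, at 2.99% of summits and 8.30% of flanks.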
